A study of Mus musculus with 31 samples.

Results

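The collagen chain genes were taken as every gene whose symbol is Col, a number, a and a number, which gave 44 genes in each of 3 count tables of a mouse pancreatic cancer line, out of 55487, 56980 and 56941 genes listed. Of the 44 genes, 11 encode fibrillar chains, 6 encode the type IV chains of basement membranes and 27 encode other collagens (beaded filament, anchoring fibril, short chain, fibril-associated, transmembrane and multiplexin types). Collagen chains fold into a helix of several chains, either copies of one chain or a fixed mixture, and the chains of a mixture are made from separate genes. Fibrillar collagens build the tough fibers of connective tissue, type IV collagens build the sheet under epithelia and around vessels, and the remaining types link fibrils, cells and sheets to each other. In pancreatic adenocarcinoma a dense collagen-rich stroma surrounds the tumor, most of it laid down by fibroblasts and stellate cells, while the cancer cells themselves also transcribe a set of collagen genes.

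All 31 RNA-seq libraries came from Panc02, a mouse pancreatic adenocarcinoma line, so the data hold cancer cells grown alone and no tissue stroma. In the conditioned medium experiment, WT spheroids embedded in Matrigel, a gel of basement membrane proteins, received control medium (Ctrl), medium conditioned by untreated macrophages (M0-CM) or medium conditioned by macrophages activated with interferon-gamma and lipopolysaccharide (M1-CM), with 3 libraries each. In the culture experiment, WT cells and cells with a CRISPR/Cas9 knockout of the chemokine gene Cxcl5 (Cxcl5-/-) were grown as a 2D layer or as 3D spheroids in Matrigel, with 3 libraries in each of the 4 groups. In the rescue experiment, all cultures were 3D: WT (2 libraries), Cxcl5-/- (2 libraries), and Cxcl5-/- cells with retroviral overexpression of a mutant Hif1a (Hif1a OE) or of Myc (Myc OE), with 3 libraries each. The rescue labels give a different running name of the line for each sample, read here as Panc02 after the study's methods. The overexpressing cells thus carry the Cxcl5 knockout too, knockout and overexpressing lines were selected with puromycin, and whether the Cxcl5-/- line is a single clone is not given in the sources used here. The labels number the libraries without tying them to separate cultures. The study's methods mention biological replicates and independent experiments in general and do not say which libraries these are, so the p-values measure the spread between these libraries, which may be technical in part.

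The genome places some partner chains side by side. Col4a1 (minus strand) and Col4a2 (plus strand), which together make the main type IV helix, start head to head on mouse chromosome 8 (GRCm38.p6), with first bases at 11312826 and 11312805, so that the gene starts share 22 bases. The starts of Col4a6 and Col4a5, also head to head, lie 1343 bases apart. Of the 44 genes, 35 had a RefSeq start window (250 bases before to 50 after the gene start). Upstream stretches of 250 bases are printed for Col3a1, a fibrillar gene that moved in opposite directions with culture in the 2 genotypes, and for Col7a1, an anchoring fibril gene that was lower in every comparison of Cxcl5-/- with WT and separated Hif1a OE from Myc OE. The Col3a1 stretch is chr1:45311288-45311537 and the Col7a1 stretch chr9:108953336-108953585, both on the plus strand and ending at the base before the gene start, from RefSeq (GRCm38.p6), with capitals marking a TATAAA match in Col3a1 and a GC box (GGGCGG) in Col7a1.

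Col3a1: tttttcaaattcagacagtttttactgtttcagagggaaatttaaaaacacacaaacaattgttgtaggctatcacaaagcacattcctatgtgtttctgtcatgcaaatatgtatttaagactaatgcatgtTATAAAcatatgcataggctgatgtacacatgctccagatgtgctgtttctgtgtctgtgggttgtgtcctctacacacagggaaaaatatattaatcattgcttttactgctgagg
Col7a1: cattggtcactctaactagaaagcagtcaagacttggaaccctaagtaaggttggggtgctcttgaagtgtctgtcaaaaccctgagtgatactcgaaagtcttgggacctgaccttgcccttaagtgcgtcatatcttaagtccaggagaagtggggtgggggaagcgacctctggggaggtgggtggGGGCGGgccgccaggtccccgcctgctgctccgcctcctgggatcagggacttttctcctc

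The TATAAA match starts 117 bases before the Col3a1 start and the GC box 61 bases before the Col7a1 start. Searched on both strands, GGGCGG stood in the windows of 22 of the 35 genes and in 35.7% of all 32851 windows, and TATAAA in 5 of the 35 genes and in 13.6% of all windows. The hypoxia response core, ACGTG or GCGTG, stood in 13 of the 35 genes and in 43.8% of all windows, and the E-box CACGTG, which contains ACGTG, in 0 of the 35 genes and in 7.2% of all windows. Neither printed stretch holds the hypoxia core or the E-box. These matches describe letters in a window and say nothing about which factor binds there.

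Total counts per library ran from 41542533 to 78498230. A count share at this depth carries little counting error for the abundant chains, and levels are given as CPM after TMM scaling, that is counts relative to a library total that has been adjusted so that libraries of 1 table share a scale. Differences are log2 fold changes ± standard error (SE) from edgeR unless another scale is named. The targeted gene was checked first. Cxcl5 was lower in the rescue 3D Cxcl5-/- libraries (36.6 and 40.2 CPM) than in rescue 3D WT (64.2 and 67.7), with a log2 difference of -0.78 ± 0.14 (adjusted p = 0.00107). In 2D it measured 37.4, 32.7 and 32.8 CPM in Cxcl5-/- and 45.6, 47.3 and 49.1 in WT (-0.47 ± 0.14, adjusted p = 0.0705). Within 3D cultures Cxcl5 went against the label, at 65.5, 40.9 and 45.4 CPM where the label was 3D Cxcl5-/- and 28.5, 24.5 and 28.0 in 3D WT (0.91 ± 0.14, adjusted p = 0.000173), so every 3D direction drawn from that group rests on its label. A small insertion or deletion made by Cas9 can leave a transcript in place, so the RNA level of the target is a limited check of a knockout. Hif1a and Myc were lower with the knockout label in both 3D experiments, by TMM scaling at -1.21 ± 0.10 and -1.75 ± 0.12 in the culture experiment and -1.18 ± 0.11 and -1.17 ± 0.15 in the rescue experiment (log2 ± SE). Myc was 4.54 log2 units higher in Myc OE than in rescue 3D Cxcl5-/-, and Hif1a was 0.94 higher in Hif1a OE but also 0.90 higher in Myc OE. The defining epithelial markers Epcam and Cdh1 had at most 10 counts in every library of the conditioned medium and culture experiments, and the macrophage markers Adgre1, Itgam and Tyrobp likewise. The rescue 3D WT libraries stood apart in their low counts. The 1418 olfactory and vomeronasal receptor genes, which act in sensory neurons, had 5.30 to 5.44 counts per kilobase there, against 0.624 to 1.59 in the other rescue libraries. The 3D WT libraries also stood above the rest of the culture experiment, at 0.937 to 1.58 against 0.374 to 0.465 in 3D Cxcl5-/-, 0.118 to 0.195 in 2D WT and 0.139 to 0.175 in 2D Cxcl5-/-. In the conditioned medium experiment the level was 0.267 to 0.525. Members were therefore also counted after keeping those whose mean count over a table was more than 10 times the level of these receptor genes.

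Collagen transcripts were a small part of the RNA of these cells, and a few chains carried most of it. The 44 genes together took 0.214% to 0.239% of all gene counts in 2D, 0.238% to 0.261% in 3D WT and 0.318% to 0.404% in the libraries labelled 3D Cxcl5-/-. In the conditioned medium experiment the share was 0.559% to 0.723%, in rescue 3D Cxcl5-/- 0.510% to 0.516%, in rescue 3D WT 0.232% to 0.238%, in Hif1a OE 0.202% to 0.233% and in Myc OE 0.149% to 0.174%. Per length of exon, the order in the culture experiment was led by Col18a1 (mean 73.8 CPM per kilobase), the multiplexin whose end fragment is endostatin, then Col3a1 (62.5), Col6a1 (57.1) and Col4a1 (55.2), with Col8a1 (29.9), Col4a2 (17.6) and Col4a5 (16.3) behind. The 4 leading genes also led in the rescue experiment, in the order Col18a1 (72.8 CPM per kilobase), Col6a1 (54.2), Col3a1 (52.1) and Col4a1 (44.5). In the conditioned medium experiment Col6a1 stood first (216 CPM per kilobase), followed by Col18a1 (161), Col4a1 (129) and Col3a1 (126). Tables were made separately, so no level is compared between them. The type I chains, the main collagen of fibroblast matrix, were low. Col1a1 measured 1.08, 0.662 and 0.612 CPM in 2D WT and 7.83, 4.74 and 6.59 in 3D WT. Col1a2 measured 1.33, 1.31 and 1.35 and 3.66, 1.24 and 1.84 in the same groups. Of the 44 genes, 29 passed the filter on low counts in the conditioned medium table, 30 in the culture table and 42 in the rescue table (all but Col13a1 and Col9a2). Of these 24, 22 and 15 had a mean count above 10 times the receptor genes.

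**Figure D1:**
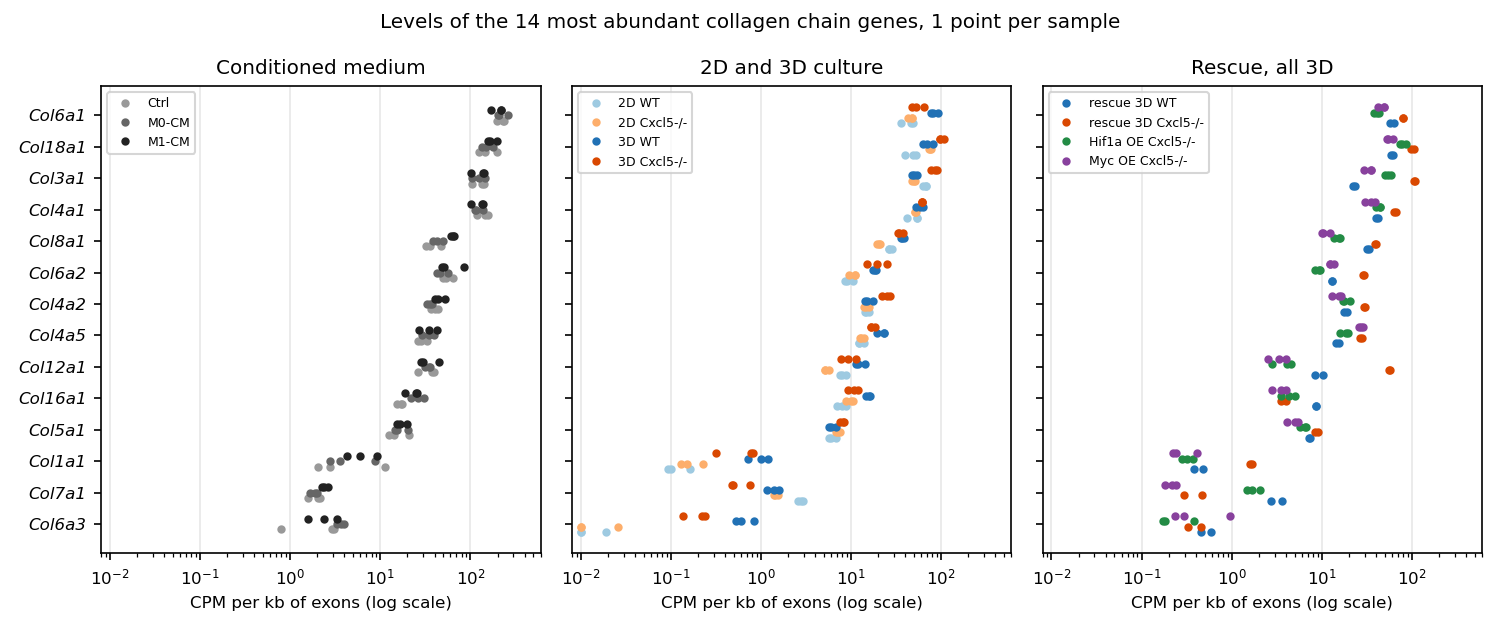
Level of the most abundant collagen chain genes in CPM per kilobase of exon (log axis, values below 0.01 drawn at 0.01), with a point for each library of the 11 groups. Col18a1, Col6a1, Col4a1 and Col3a1 led in all 3 experiments.

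Conditioned medium of macrophages changed no collagen gene past the threshold of edgeR. The comparison asked what the spheroids' RNA does when macrophage products are added. A gene was called where the Benjamini-Hochberg adjusted p of edgeR's quasi-likelihood test, over all genes tested in the table, was under 0.05. Some called members were named because their groups did not overlap, so a lack of overlap among them adds no evidence to the calls. The share of all genes without overlap is not given here. In M1-CM against Ctrl 0 of 29 members were called (edgeR), as against 0.0156% of all genes, with 5 at an unadjusted p under 0.05 and 3 called by DESeq2 (Col27a1, Col8a1 and Col9a3). In M1-CM against M0-CM 0 were called by edgeR (0.0156% of all genes), 3 had an unadjusted p under 0.05 and DESeq2 called 0. In M0-CM against Ctrl 0 were called by edgeR (0% of all genes), 4 had an unadjusted p under 0.05 and DESeq2 called 1 (Col9a3).

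Col8a1, a short chain collagen of vessel walls and of the cornea, measured 254, 372 and 278 CPM in Ctrl, 298, 393 and 331 in M0-CM and 481, 509 and 500.3 in M1-CM. Each M1-CM library lay above every Ctrl and M0-CM library, with a log2 difference of 0.72 ± 0.18 (adjusted p = 0.673) against Ctrl by edgeR. Col27a1, a fibrillar chain of cartilage, measured 7.02, 10.1 and 4.91 CPM in Ctrl, 2.91, 2.59 and 3.25 in M0-CM and 2.98, 3.44 and 1.69 in M1-CM. The Ctrl libraries were the highest and did not overlap with either group (-1.44 ± 0.35, adjusted p = 0.665 for M1-CM against Ctrl). Col9a3, a chain of the fibril-associated type IX collagen, had 0, 0 and 0 counts in Ctrl, 44, 52 and 27 in M0-CM and 61, 38 and 56 in M1-CM. With Ctrl set at a floor of 3 counts per library, Col9a3 was at least 14.2-fold higher in M0-CM and at least 20.1-fold higher in M1-CM (adjusted p = 0.318 and 0.0645, edgeR). Its partner Col9a1 had 0 counts in every library of the table. The type I chain Col1a1 showed how far libraries of 1 group could differ, with 73.8, 13.5 and 18.4 CPM in Ctrl and 39.0, 60.0 and 27.7 in M1-CM.

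Growth as spheroids raised most collagen genes that moved in WT cells. In 3D WT against 2D WT, 20 of 30 tested members were called, 18 higher and 2 lower, where 44.3% of all genes were called (22.2% higher and 22% lower). The median log2 difference of the 30 members was 0.95, against 0.00 for all genes tested. By group, 5 fibrillar genes rose and 1 fell of 9 tested, 2 of 6 type IV genes rose, and of 15 other collagens 11 rose and 1 fell. Of the 22 members well above the receptor genes, 13 rose and 2 fell, with a median of 0.70. Genes listed as cell type markers moved with culture as well, in libraries of 1 cell line. In 2D WT and 3D WT the 8 epithelial markers summed to 547 to 593 and 854 to 1098 CPM, the 4 mesenchymal markers to 2743 to 3072 and 3571 to 4108, and the 8 macrophage markers to 28.0 to 32.4 and 42.2 to 46.5. Krt7 and Zeb1 were called lower, against 5 epithelial and 3 mesenchymal markers called higher. The 8 fibroblast and stellate cell markers summed to 178 to 192 and 159 to 168 CPM. Among them Dcn, Lum and Des were called higher and Pdgfrb lower, so the sum fell while most called markers rose. The 5 endothelial markers summed to at most 0.0432 and at most 0.719. The part of any of the marker lists in the collagen differences was not tested. In bulk libraries of a cell line like these, fewer cells in a given state and less RNA per cell cannot be told apart.

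Type VI collagen, the beaded filament around cells, rose in all 3 of its main chains. Col6a1 measured 204, 156 and 214 CPM in 2D WT and 401, 342 and 359.6 in 3D WT, a log2 difference of 0.94 ± 0.13 (adjusted p = 5.02e-05). Col6a2 measured 75.5, 72.1 and 88.1 and 158, 147 and 154, a difference of 0.96 ± 0.15 (adjusted p = 0.000105). Col6a3, the long chain of the same helix, had 12, 6 and 0 counts in 2D WT against 513, 269 and 394 in 3D WT, a difference of 6.32 ± 0.77 (adjusted p = 1.47e-05). In none of the 3 did the 2D and 3D libraries overlap, and Col6a3 went from near the detection limit to a level that was still far below its partners in CPM. Among fibrillar chains, Col1a1 rose from 1.08, 0.662 and 0.612 CPM to 7.83, 4.74 and 6.59, a difference of 3.04 ± 0.38 (adjusted p = 1.74e-05). Col5a2, a minor chain that sets fibril width, rose from 1.08, 0.547 and 0.946 to 2.38, 1.87 and 2.21 CPM (1.34 ± 0.32, adjusted p = 0.00343). Its partner Col5a1 measured 57.2, 50.5 and 48.6 in 2D WT and 48.1, 57.1 and 51.3 in 3D WT (0.00 ± 0.09, adjusted p = 0.99). Each 3D WT library lay above each 2D WT library for Col1a1 and Col5a2, and the Col5a1 ranges overlapped. Against the trend, Col3a1, the homotrimeric type III fibril chain of elastic tissue, fell from 660.3, 624 and 659 to 467, 496 and 527 CPM (-0.38 ± 0.08, adjusted p = 0.00149). Col7a1, the anchoring fibril chain under the epidermis, fell from 30.2, 26.6 and 28.6 to 14.3, 16.4 and 11.9 CPM (-1.0 ± 0.16, adjusted p = 0.000178), with no overlap for either gene.

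Of the type IV chains in WT cells, Col4a5 rose from 83.2, 81.9 and 94.7 CPM in 2D to 156, 130.3 and 156 in 3D (0.77 ± 0.09, adjusted p = 1.54e-05). The abundant pair Col4a1 (0.22 ± 0.10, adjusted p = 0.084) and Col4a2 (0.06 ± 0.10, adjusted p = 0.664) did not pass the test. Col16a1, a fibril-associated chain, measured 53.8, 46.7 and 58.6 CPM in 2D WT and 111, 108 and 98.7 in 3D WT (1.00 ± 0.11, adjusted p = 8.18e-06). Col18a1 rose from 341, 282 and 370.0 to 571, 437 and 488 CPM (0.59 ± 0.11, adjusted p = 0.000707). Col12a1, a fibril-associated chain of tendon and skin, rose from 119.8, 133 and 116 to 184, 173 and 215 (0.63 ± 0.13, adjusted p = 0.000938). For Col4a5, Col16a1, Col18a1 and Col12a1 the 2D WT and 3D WT libraries did not overlap. Several called members rested on few counts. Col11a1 had 0, 0 and 0 in 2D WT and 5, 10 and 21 in 3D WT, where a gene of its length at the level of the receptor genes would have had 12.8, 11.9 and 20.1, so its call cannot be told apart from the higher background of 3D WT. Col9a3 had 0, 0 and 13 counts in 2D WT and 40, 29 and 45 in 3D WT, and Col20a1 had 0, 7 and 5 and 17, 20 and 22. At the level of the receptor genes they would have had 3.61 to 6.07 and 4.82 to 8.10 counts in 3D WT. The calls of Col11a1, Col9a3, Col20a1 and Col5a3 were lost in 4 or more of the 6 fits that left out 1 library of the groups compared.

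In the comparison of the libraries labelled 3D Cxcl5-/- with 2D Cxcl5-/-, 18 of 30 members were called, 17 higher and 1 lower, where 57% of all genes were called (28.7% higher and 28.2% lower). The median was 0.78 against 0.11 for all genes. In the same libraries the fibroblast and stellate cell markers summed to 181 to 196 CPM in 2D Cxcl5-/- and 439 to 484 in 3D, the epithelial markers to 450 to 484 and 218 to 237.7, and the mesenchymal markers to 1597 to 1797 and 684 to 831. Of the 6 epithelial markers tested, 3 were called higher and 3 lower. Macrophage markers summed to 48.7 to 49.3 and 43.3 to 63.2 CPM and endothelial markers to 0.0322 to 0.216 and 0.351 to 0.485. Their part in the collagen differences was not tested. All 4 called fibrillar genes and all 4 called type IV genes were higher, and of 15 other collagens 9 rose and 1 fell. Col3a1 went the other way from WT, from 505, 461 and 487 CPM in 2D Cxcl5-/- to 843, 759.9 and 872 in 3D (0.77 ± 0.08, adjusted p = 2.62e-06). Col27a1 rose from 0.296, 0.257 and 0.324 to 2.24, 2.01 and 2.75 CPM (2.99 ± 0.24, adjusted p = 2.17e-07), the largest difference on the log2 scale among members with over 10 counts in every library of the pair. Col4a2 rose from 97.8, 92.4 and 105 to 148, 181 and 165 CPM (0.74 ± 0.10, adjusted p = 2.71e-05), and its head-to-head partner Col4a1 measured 398, 380.3 and 386 and 458, 454 and 456 (0.23 ± 0.10, adjusted p = 0.0589). Libraries of the 2 groups did not overlap for Col3a1, Col27a1, Col4a2 or Col4a1, although Col4a1 did not reach the threshold. Col7a1 fell here too, from 15.8, 14.4 and 14.9 to 5.10, 7.77 and 4.90 CPM (-1.34 ± 0.17, adjusted p = 1.16e-05). Col4a6, the partner of Col4a5 in some basement membranes, was called on 0, 3 and 0 counts in 2D and 17, 13 and 20 in 3D, and that call was lost in 2 of 6 leave-one-out fits. Col8a2, the partner of Col8a1, had 4, 0 and 8 and 29, 49 and 26 counts and lost its call in 3 of 6.

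**Figure D2:**
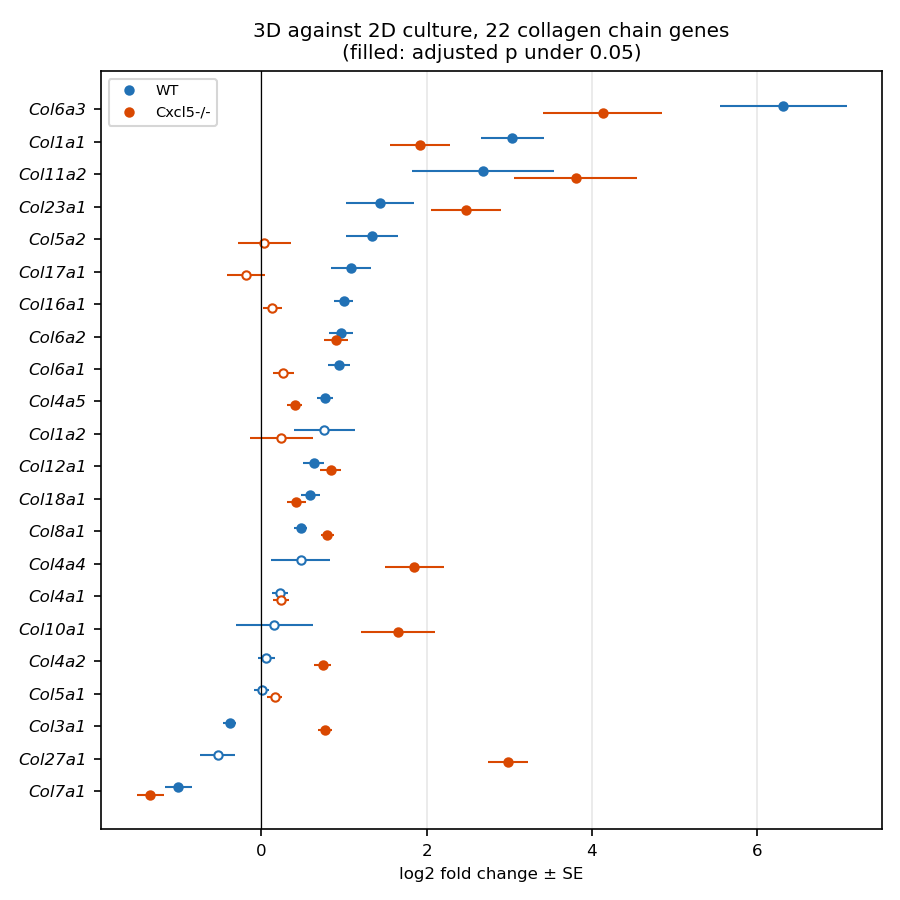
Log2 difference of 3D against 2D (horizontal axis; points are estimates and bars are 1 standard error, filled where adjusted p is under 0.05) for 22 collagen chain genes in WT and in the Cxcl5-/- labelled libraries. Most points lie to the right of 0 in both genotypes, Col7a1 lies to the left in both, and Col3a1 lies at -0.38 in WT and 0.77 in Cxcl5-/-.

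In 2D the knockout moved 6 of 30 collagen genes tested (20%), and nearly all of those fell. In 2D Cxcl5-/- against 2D WT, 6 of 30 members were called, 1 higher and 5 lower, where 7.03% of all genes were called (3.86% higher and 3.17% lower). The median over members was 0.00 on the log2 scale and over all genes -0.02. With the knockout in 2D the epithelial markers were at 450 to 484 CPM against 547 to 593 in WT, the mesenchymal markers at 1597 to 1797 against 2743 to 3072 and the macrophage markers at 48.7 to 49.3 against 28.0 to 32.4. Krt7 (epithelial) and Cdh2 (mesenchymal) were called higher against their sums, where Krt18, Krt19, Vim and Zeb1 were called lower. The fibroblast and stellate cell markers overlapped (181 to 196 against 178 to 192), and the part of these markers was not tested. Col27a1 showed the largest fall among them, from 2.16, 2.11 and 1.90 CPM in WT to 0.296, 0.257 and 0.324 in Cxcl5-/- (-2.81 ± 0.24, adjusted p = 5.64e-06). Col7a1 fell from 30.2, 26.6 and 28.6 to 15.8, 14.4 and 14.9 CPM (-0.92 ± 0.16, adjusted p = 0.00247). Col12a1 measured 119.8, 133 and 116 and 77.9, 78.8 and 85.8 CPM (-0.60 ± 0.13, adjusted p = 0.00839), a call that was lost in 1 of 6 fits with a library left out (adjusted p up to 0.0566). Col3a1 (-0.42 ± 0.08, adjusted p = 0.00493) and Col8a1 (-0.41 ± 0.08, adjusted p = 0.00519) fell by about the same amount. The one gene that rose was Col18a1, from 341, 282 and 370.0 to 547, 518 and 529 CPM (0.68 ± 0.11, adjusted p = 0.00168). WT and Cxcl5-/- libraries did not overlap for any of these 6 genes, and 0 of the 6 type IV genes were called, with 0.06 ± 0.10 for Col4a1 and -0.01 ± 0.10 for Col4a2 (SE).

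In 3D 56.7% of the collagen genes tested differed with the knockout label, in both directions. The share of all genes called also rose from 2D to 3D, from 7.03% to 45%. In the libraries labelled 3D Cxcl5-/- against 3D WT, 17 of 30 members were called, 8 higher and 9 lower, where 45% of all genes were called (19.7% higher and 25.3% lower). The split depended on the scaling: with library totals in place of TMM, 11 were higher and 3 lower, as the median over all genes moved from -0.04 to 0.35 on the log2 scale. Library totals also moved that median from -0.05 to 0.32 for the interaction of genotype and culture and from 0.00 to -0.21 for 3D against 2D in WT. For Myc OE against rescue 3D WT it moved from -0.17 to -0.46. By group, fibrillar genes had 4 higher and 3 lower of 9 tested, type IV genes 2 higher and 1 lower of 6, and other collagens 2 higher and 5 lower of 15.

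Among the fibrillar genes Col3a1, Col5a1, Col11a2 and Col27a1 rose and Col1a2, Col5a2 and Col5a3 fell, so that chains of type V moved in opposite directions. Col3a1 measured 467, 496 and 527 CPM in 3D WT and 843, 759.9 and 872 in the libraries labelled 3D Cxcl5-/- (0.73 ± 0.08, adjusted p = 7.63e-06). Col5a1 rose from 48.1, 57.1 and 51.3 to 63.5, 71.6 and 68.9 CPM (0.38 ± 0.09, adjusted p = 0.00307), and Col27a1 from 1.73, 1.31 and 1.24 to 2.24, 2.01 and 2.75 (0.71 ± 0.22, adjusted p = 0.0155). Col11a2, a chain of the thin cartilage fibril, had 36, 18 and 28 counts in 3D WT and 237, 154 and 188 in 3D Cxcl5-/- (2.50 ± 0.69, adjusted p = 0.0096). Groups did not overlap for these 4 genes, and the Col27a1 call was lost in 3 of 6 leave-one-out fits (adjusted p up to 0.0855). Col5a2 fell from 2.38, 1.87 and 2.21 to 0.678, 0.537 and 1.11 CPM (-1.47 ± 0.32, adjusted p = 0.00198). Col5a3, the third type V chain, had 30, 30 and 61 counts in 3D WT and 0, 0 and 0 in 3D Cxcl5-/-, at least 16.6-fold lower against a floor of 3 counts per library (adjusted p = 0.00182). At the level of the receptor genes Col5a3 would have had 6.38 to 10.7 counts in 3D WT. Col1a1 did not pass the test (2.08, 5.43 and 5.11 CPM in 3D Cxcl5-/-, -0.60 ± 0.34, adjusted p = 0.164). Its partner Col1a2 was called lower with 0.647, 1.04 and 1.54 CPM in 3D Cxcl5-/- (-1.06 ± 0.37, adjusted p = 0.0314), but its groups overlapped and leaving out a library took the call away in 3 of 6 fits.

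Col4a2 rose with the 3D knockout label and Col4a1, which starts beside it, did not pass the test. Col4a2 measured 115, 100.2 and 94.0 CPM in 3D WT and 148, 181 and 165 in 3D Cxcl5-/- (0.67 ± 0.10, adjusted p = 0.000105). Col4a1 measured 473, 397 and 431 and 458, 454 and 456 (0.07 ± 0.10, adjusted p = 0.586 with TMM scaling, and 0.46 and called with library totals). Col4a5 was lower by TMM scaling, with 156, 130.3 and 156 CPM in 3D WT and 110.5, 113 and 123 in 3D Cxcl5-/- (-0.35 ± 0.09, adjusted p = 0.0071), but at 0.042 with library totals the direction did not hold. Among the other collagens Col7a1 fell from 14.3, 16.4 and 11.9 to 5.10, 7.77 and 4.90 CPM (-1.26 ± 0.17, adjusted p = 3.74e-05). Col18a1 rose from 571, 437 and 488 to 686, 688 and 762 CPM (0.51 ± 0.11, adjusted p = 0.00216), and neither gene overlapped between groups. Col6a1 fell from 401, 342 and 359.6 to 232, 209 and 282 CPM (-0.61 ± 0.13, adjusted p = 0.00186). Col6a3 fell from 9.94, 6.28 and 7.27 to 1.64, 2.86 and 2.66 CPM (-1.72 ± 0.56, adjusted p = 0.0231), with a call lost in 3 of 6 leave-one-out fits. Their partner Col6a2 measured 126, 159.8 and 207 CPM in 3D Cxcl5-/- and did not pass the test (0.10 ± 0.14, adjusted p = 0.599). With library totals, Col6a1 was at -0.22 and Col6a3 at -1.30, neither called, and Col6a2 was called at 0.51. Col16a1 fell from 111, 108 and 98.7 to 61.8, 72.9 and 80.9 CPM (-0.56 ± 0.11, adjusted p = 0.0012) and was not called with library totals (-0.16). Col12a1 was lower with TMM scaling (-0.40 ± 0.12, adjusted p = 0.0185) and at 0.012 with library totals. Col10a1, the short chain collagen of growth plate cartilage, rose from 0.310, 0.841 and 0.885 to 1.09, 3.48 and 2.38 CPM (1.77 ± 0.46, adjusted p = 0.00633).

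Genes listed as cell type markers moved with this comparison, and their part in it was not tested. The summed level of the 8 fibroblast and stellate cell markers was 159 to 168 CPM in 3D WT and 439 to 484 in the libraries labelled 3D Cxcl5-/-, although Fap and Thy1 had at most 10 counts in every library of the table. Of these, Pdgfra, Pdgfrb and Acta2 were called higher and Dcn and Lum lower. The 8 epithelial markers summed to 854 to 1098 CPM in 3D WT and 218 to 237.7 in 3D Cxcl5-/-, with Epcam and Cdh1 near 0 in both. Krt7 was called higher, and Krt8, Krt18 and Krt19 were called lower. The 4 mesenchymal markers, most of whose sum is Vim, summed to 3571 to 4108 and 684 to 831. Zeb1 was called higher, and Vim, Snai2 and Cdh2 were called lower. Of the 8 macrophage markers Adgre1, Itgam and Tyrobp had at most 10 counts, and the sum was 42.2 to 46.5 and 43.3 to 63.2 CPM. Of the 5 endothelial markers Tek had at most 10 counts, and the sum was below 0.72 CPM in every library of the table.

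Whether the genotype difference itself depended on culture was tested as an interaction, (3D Cxcl5-/- minus 3D WT) minus (2D Cxcl5-/- minus 2D WT). It was called for 8 of 30 members, 4 higher and 4 lower, where 27.2% of all genes were called (11.1% higher and 16.1% lower), and with library totals for 6 higher and 0 lower. The difference was more positive in 3D for Col27a1 (3.52 ± 0.32, adjusted p = 6.97e-06), Col3a1 (1.15 ± 0.11, adjusted p = 1.26e-05), Col4a2 (0.68 ± 0.14, adjusted p = 0.00314) and Col8a1 (0.32 ± 0.11, adjusted p = 0.0495). For Col27a1 and Col3a1 the genotype difference changed sign, from lower in 2D to higher in 3D. Col8a1 fell in 2D and was at -0.09 ± 0.08 (SE) in 3D, a value that turned to 0.30 with library totals. It was more negative in 3D for Col17a1 (-1.27 ± 0.33, adjusted p = 0.0126), the hemidesmosome collagen, Col5a2 (-1.30 ± 0.45, adjusted p = 0.0461), Col16a1 (-0.87 ± 0.16, adjusted p = 0.00142) and Col6a1 (-0.68 ± 0.18, adjusted p = 0.0154), none of which was called with library totals. The calls of Col5a2 and Col8a1 were lost in 9 and 10 of 12 leave-one-out fits. Col18a1 rose in both cultures and its interaction was -0.17 ± 0.16 (adjusted p = 0.475), and that of Col7a1, lower in both, was -0.34 ± 0.23 (adjusted p = 0.302).

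**Figure D3:**
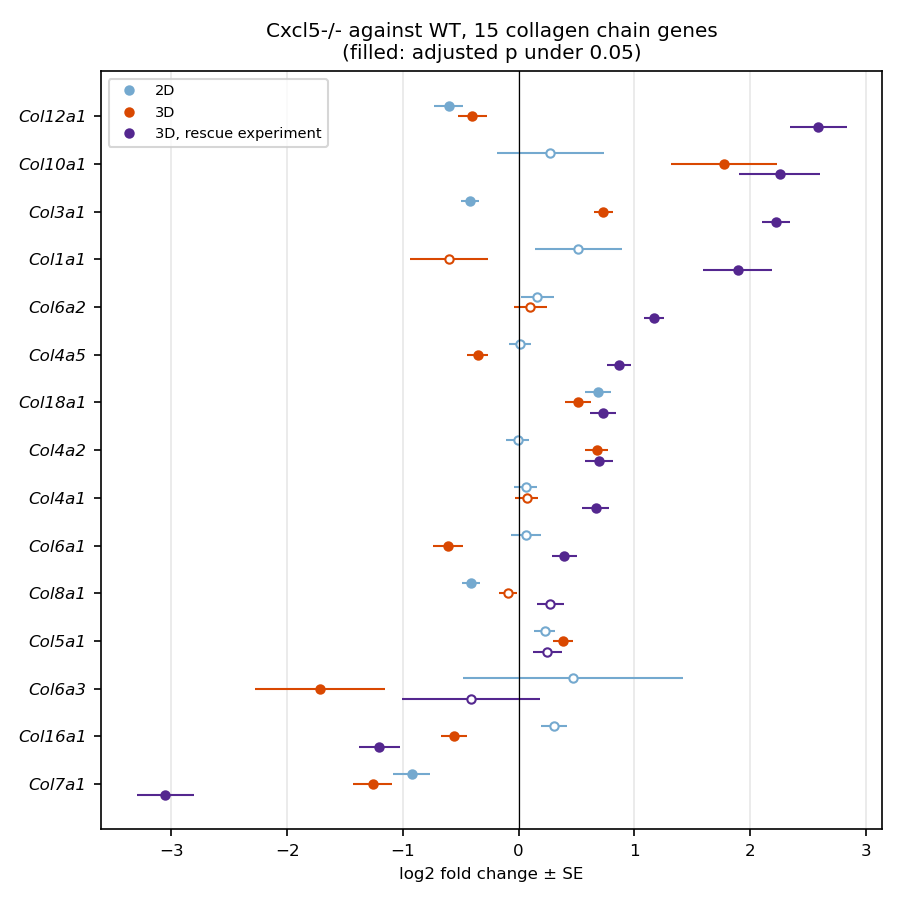
Log2 difference of Cxcl5-/- against WT (horizontal axis; points are estimates and bars are 1 standard error, filled where adjusted p is under 0.05) for 15 collagen chain genes in 2D, in 3D and in the 3D rescue experiment. Col7a1 lies to the left in all 3 and Col18a1 to the right. Col3a1 lies to the left in 2D and to the right in both 3D experiments. The 3D values of Col12a1, Col4a5 and Col8a1 in the culture experiment change direction with library totals.

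The rescue experiment grew WT and Cxcl5-/- spheroids again beside the overexpressing cells. In rescue 3D Cxcl5-/- against rescue 3D WT, 22 of 42 members were called, 12 higher and 10 lower, where 41.9% of all genes were called (17.6% higher and 24.3% lower). The median was -0.36 against -0.30 for all genes. Low genes set those medians: over all 9530 genes with a mean of 10 CPM or more the median was 0.00. Among the 15 members well above the receptor genes, 12 were called, 10 higher and 2 lower, with a median of 0.69. Of the fibrillar genes 4 rose and 1 fell of 11, of the type IV genes 3 of 6 rose, and of the other collagens 5 rose and 9 fell of 25.

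Among the members well above the receptor genes Col12a1 rose most on the log2 scale, from 129 and 158 in rescue 3D WT to 867 and 858 in rescue 3D Cxcl5-/- (2.59 ± 0.24, adjusted p = 1.16e-05). Col3a1 rose from 216 and 230.2 to 1029 and 1056 CPM (2.22 ± 0.12, adjusted p = 2.24e-07). Col27a1 rose from 2.32 and 1.65 to 20.7 and 17.4 CPM (3.26 ± 0.31, adjusted p = 1.19e-05), and a gene of its length at the level of the receptor genes would have had 66% and 93% of its 2 WT counts. Both knockout libraries lay above both WT libraries for each of the 3 genes. Both type IV partners rose here, Col4a1 from 314 and 298 to 473 and 497 CPM (0.66 ± 0.11, adjusted p = 0.000781) and Col4a2 from 126 and 118 to 193 and 201 (0.69 ± 0.12, adjusted p = 0.000867). Col4a5 rose from 103 and 97.3 to 178 and 187 CPM (0.87 ± 0.10, adjusted p = 5.35e-05). Col6a1 (277 and 251 against 348 and 346 CPM, 0.39 ± 0.11, adjusted p = 0.0126) and Col6a2 (108 and 108 against 239 and 246, 1.17 ± 0.09, adjusted p = 2.50e-06) rose, the first with a call lost in 3 of 4 leave-one-out fits. Col1a1 rose from 2.54 and 3.20 to 10.9 and 10.4 CPM (1.89 ± 0.30, adjusted p = 0.000471) and Col10a1 from 0.927 and 1.04 to 4.65 and 4.79 (2.26 ± 0.35, adjusted p = 0.000404). Col18a1 rose from 439 and 415 to 679 and 733 CPM (0.73 ± 0.11, adjusted p = 0.000363). The 2 genes that fell well above the background were Col7a1, from 37.0 and 28.0 to 3.03 and 4.79 CPM (-3.05 ± 0.25, adjusted p = 3.58e-06), and Col16a1, from 58.9 and 58.4 to 24.1 and 26.8 (-1.20 ± 0.18, adjusted p = 0.000309). Libraries of WT and Cxcl5-/- did not overlap for any gene of this paragraph.

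The other 8 members called lower were at or near 0 in rescue 3D Cxcl5-/- and had 13 to 59 counts in rescue 3D WT, which was near the level of the receptor genes there. These 8 passed the filter on low counts through the WT libraries, so their calls cannot be told apart from the higher background of those libraries. Col22a1, a chain of tissue junctions, had 50 and 59 counts in WT and 0 and 0 in Cxcl5-/-, and a gene of its length at the level of the receptor genes would have had 48.7 and 50.04 in WT. Col6a5, a further type VI chain, had 44 and 57 and 0 and 0 (49.9 and 51.2 at that level), and Col19a1 had 36 and 25 and 0 and 0 (36.5 and 37.5 at that level). Col28a1 with 13 and 44, Col26a1 with 36 and 13 and Col9a1 with 20 and 29 counts in WT were also at 0 in both Cxcl5-/- libraries. Col11a1 had 41 and 51 against 0 and 3 and Col25a1 58 and 48 against 0 and 6. Over the 8 genes the mean count in WT was 0.558 to 1.10 times that of a gene of the same length at the level of the receptor genes, and 42 of the 44 members had 10 or more counts in each rescue 3D WT library, against 29 to 35 in the other rescue libraries. Calls of Col26a1 and Col6a5 were lost in all 4 leave-one-out fits and that of Col28a1 in 3. In the same libraries the fibroblast and stellate cell markers summed to 79.8 to 82.6 CPM in WT and 483 to 496 in Cxcl5-/-. The epithelial markers summed to 857 to 904 and 288 to 303 in the same order, and the mesenchymal markers to 3372 to 3393 and 601 to 631. Zeb1 was called higher against the mesenchymal sum, with Vim and Snai2 called lower. Macrophage markers summed to 43.2 to 43.3 and 34.5 to 34.7 CPM, and endothelial markers to 3.15 to 4.70 and 0.332 to 0.386. Of the macrophage markers Cd68 was called higher and Adgre1, Ptprc and Cd14 lower. The low marker counts were not set beside the level of the receptor genes, which was higher in rescue 3D WT. The part of these markers in the collagen differences was not tested.

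The genotype difference in 3D was measured in 2 experiments, and a fit over both tables, added after the data had been seen, tested whether it was the same size. It differed between experiments (rescue minus culture) for 10 members, 8 higher and 2 lower, where 8.99% of all genes were called (5.59% higher and 3.39% lower). The largest differences were those of Col12a1 (2.98 ± 0.23, adjusted p = 4.72e-05), Col27a1 (2.54 ± 0.32, adjusted p = 0.00082) and Col1a1 (2.49 ± 0.50, adjusted p = 0.0106). Col12a1 and Col1a1 rose with the knockout in the rescue experiment, whereas in the culture experiment they were at -0.40 ± 0.12 (with TMM scaling) and -0.60 ± 0.34. Col3a1 rose in both and more in the rescue experiment (1.48 ± 0.13, adjusted p = 0.000107). Col4a5 (1.21 ± 0.15, adjusted p = 0.000823), Col6a2 (1.05 ± 0.23, adjusted p = 0.0155), Col6a1 (0.99 ± 0.18, adjusted p = 0.00617) and Col4a1 (0.58 ± 0.13, adjusted p = 0.0188) were also higher. The calls of Col4a1 and Col6a2 were lost with library totals (0.41 and 0.87). Col7a1 (-1.81 ± 0.34, adjusted p = 0.00815) and Col16a1 (-0.66 ± 0.16, adjusted p = 0.031) fell in both experiments and further in the rescue experiment. For Col18a1, which rose in both, the difference between experiments was 0.20 ± 0.16 (adjusted p = 0.497). Experiment and any library preparation that went with it cannot be told apart, and Cxcl5 itself moved in opposite directions in the 2 experiments.

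Overexpression of Hif1a in Cxcl5-/- cells lowered most collagen genes that moved. In Hif1a OE against rescue 3D Cxcl5-/-, 19 of 42 members were called, 4 higher and 15 lower, where 35.5% of all genes were called (20.5% higher and 15% lower). The median was -0.40 against 0.16 for all genes, and without rescue 3D Cxcl5-/- replicate 1 the number called was 12. Among the 15 members well above the receptor genes, 1 rose and 12 fell, with a median of -0.70. All 4 called fibrillar genes and all 3 called type IV genes fell, and of 25 other collagens 4 rose and 8 fell. This comparison and the one of Myc OE share the 2 rescue 3D Cxcl5-/- libraries, and those in turn served as the knockout side above, so a low or high value in them moves all of these differences.

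Col27a1 fell most, from 20.7 and 17.4 CPM in rescue 3D Cxcl5-/- to 0.882, 0.926 and 1.34 in Hif1a OE (-4.18 ± 0.28, adjusted p = 1.13e-06). Col12a1 fell to 42.2, 62.1 and 70.2 CPM (-3.89 ± 0.22, adjusted p = 4.52e-07), below the 129 and 158 CPM of rescue 3D WT. Col3a1 fell to 492, 574 and 533 CPM (-0.97 ± 0.10, adjusted p = 2.47e-05) and so remained above the WT libraries (1.26 ± 0.11, adjusted p = 2.60e-05 for Hif1a OE against rescue 3D WT). For Col12a1 the direction against WT was the reverse of Col3a1 (-1.30 ± 0.21, adjusted p = 0.00133). Col6a2 (77.5, 70.9 and 79.2 CPM, -1.68 ± 0.08, adjusted p = 1.34e-07) and Col6a1 (167, 189 and 182 CPM, -0.95 ± 0.10, adjusted p = 1.77e-05) fell. The type IV chains Col4a1 (300.0, 329 and 333 CPM, -0.60 ± 0.10, adjusted p = 0.000738), Col4a2 (116, 113 and 136 CPM, -0.70 ± 0.11, adjusted p = 0.000353) and Col4a5 (108, 130.0 and 125 CPM, -0.59 ± 0.09, adjusted p = 0.000346) fell together. Col8a1 fell to 107, 120.3 and 126 CPM (-1.40 ± 0.10, adjusted p = 2.06e-06) from 308 and 314 in rescue 3D Cxcl5-/-, and rescue 3D WT stood at 265 and 249, so its Hif1a OE level lay below both. Col5a1 (48.6, 55.5 and 56.2 CPM after 76.3 and 72.0 in the knockout, -0.47 ± 0.11, adjusted p = 0.00695) fell, but its call was lost in 1 of 5 leave-one-out fits. Col1a1 (2.12, 1.87 and 2.48 CPM, -2.31 ± 0.26, adjusted p = 4.46e-05) and Col10a1 (1.37, 0.804 and 1.37 CPM, -2.00 ± 0.30, adjusted p = 0.00031) fell as well. Col18a1 fell the least of the 15 (-0.35 ± 0.10, adjusted p = 0.017), with a call lost in 3 of 5 leave-one-out fits. Col7a1 was the one member well above background that rose, from 3.03 and 4.79 to 15.2, 21.1 and 17.2 CPM (2.19 ± 0.23, adjusted p = 2.33e-05). This level lay between the knockout and the WT libraries, and against rescue 3D WT the difference was -0.87 ± 0.20 (adjusted p = 0.0103). The other 3 genes that rose, Col19a1 (10, 6 and 2 counts), Col22a1 (8, 27 and 0) and Col28a1 (20, 11 and 5), were among those at 0 in the knockout, and each lost its call in some leave-one-out fit. Their mean counts in Hif1a OE were 0.658, 0.958 and 1.85 times the level of the receptor genes for their length.

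Myc overexpression gave nearly the same count of lower genes. In Myc OE against rescue 3D Cxcl5-/-, 20 of 42 members were called, 4 higher and 16 lower, where 39.6% of all genes were called (21.6% higher and 18% lower). The median was -0.57 against 0.11 for all genes. Among the 15 members well above the receptor genes, 0 rose and 12 fell, with a median of -0.91. Of the fibrillar genes 1 rose and 4 fell, of the type IV genes 3 fell, and of the other collagens 3 rose and 9 fell. Col12a1 fell to 38.8, 61.5 and 51.5 CPM (-4.09 ± 0.22, adjusted p = 2.27e-07) and Col27a1 to 1.92, 2.15 and 1.23 (-3.43 ± 0.27, adjusted p = 2.15e-06). Col3a1 fell to 348, 289 and 345 CPM (-1.67 ± 0.10, adjusted p = 5.00e-07) and Col8a1 to 81.4, 79.0 and 96.3 (-1.86 ± 0.10, adjusted p = 2.48e-07). Col1a1 fell to 1.48, 1.59 and 2.73 CPM (-2.45 ± 0.27, adjusted p = 2.23e-05), with rescue 3D WT at 2.54 and 3.20. The basement membrane pair Col4a1 (287, 227 and 259 CPM, -0.91 ± 0.10, adjusted p = 2.69e-05) and Col4a2 (107, 86.8 and 102 CPM, -1.0 ± 0.11, adjusted p = 2.05e-05) fell by about the same amount on the log2 scale. Col4a5 did not, with 183, 174 and 191 CPM in Myc OE and 178 and 187 in rescue 3D Cxcl5-/- (0.00 ± 0.09, adjusted p = 1, and -0.33 with library totals). Col7a1 fell further, to 2.26, 2.46 and 1.87 CPM (-0.84 ± 0.23, adjusted p = 0.0121), but without 1 of the libraries in turn the call was lost in 1 of 5 fits (adjusted p up to 0.22). Col11a2 rose, with 3.79, 4.61 and 4.60 CPM in Myc OE and 2.10 and 2.31 in rescue 3D Cxcl5-/- (0.97 ± 0.24, adjusted p = 0.00751 against the knockout). It measured 0.794 and 1.04 CPM in rescue 3D WT, which for its length lay near the level of the receptor genes there. Col9a1 had 27, 61 and 23 counts in Myc OE and 0 and 0 in the knockout, at least 12.5-fold higher against a floor of 3 counts per library (adjusted p = 0.00185), and Col9a2 was not tested. At the level of the receptor genes Col9a1 would have had 4.50 to 6.74 counts in Myc OE. The other 2 members called higher, Col19a1 and Col22a1, had mean counts in Myc OE of 0.386 and 1.41 times that level for their length.

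The 2 overexpressing groups differed from each other in 11 of 42 members, 4 higher and 7 lower in Myc OE, where 19.3% of all genes were called (9.54% higher and 9.73% lower). Col7a1 gave the largest of these among members well above background (-3.02 ± 0.21, adjusted p = 2.21e-06 for Myc OE against Hif1a OE), with 15.2, 21.1 and 17.2 CPM in Hif1a OE and 2.26, 2.46 and 1.87 in Myc OE. Col17a1 (-1.08 ± 0.24, adjusted p = 0.00754), Col3a1 (-0.70 ± 0.09, adjusted p = 0.000293), Col18a1 (-0.48 ± 0.09, adjusted p = 0.00291) and Col8a1 (-0.46 ± 0.09, adjusted p = 0.0045) were lower in Myc OE. Col4a5 (0.59 ± 0.08, adjusted p = 0.000399), Col6a2 (0.48 ± 0.07, adjusted p = 0.000786) and Col11a2 (1.48 ± 0.22, adjusted p = 0.000584) were higher in Myc OE. None of these 8 genes overlapped between the 2 groups. Against rescue 3D WT, Hif1a OE had 10 members called, 2 higher and 8 lower, where 24.2% of all genes were called (13.9% higher and 10.3% lower). The split was 1 higher and 9 lower with library totals, 1 and 10 with the size factors of DESeq2 in edgeR, and 2 and 12 with the test of DESeq2. Myc OE against rescue 3D WT had 13 called, 3 higher and 10 lower, where 31.8% of all genes were called (17.1% higher and 14.7% lower), and 2 higher and 14 lower with library totals. Among the 15 members well above the receptor genes, 2 were higher and 6 lower in both of these comparisons with WT. Col27a1 and Col9a1, lower in Hif1a OE, and Col11a1 and Col19a1, lower in Myc OE, were near the receptor level in rescue 3D WT. The fibroblast and stellate cell markers summed to 134 to 175 CPM in Hif1a OE and 403 to 438 in Myc OE, and the epithelial markers to 707 to 839 and 268 to 313. The mesenchymal markers summed to 743 to 827 and 1016 to 1063 CPM in the same order, the macrophage markers to 44.9 to 63.2 and 59.7 to 76.7, and the endothelial markers to 0.199 to 1.07 and 0.758 to 0.979. Within each of these marker lists, members were called in both directions in Myc OE against Hif1a OE. Their part in the collagen differences was not tested.

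**Figure D4:**
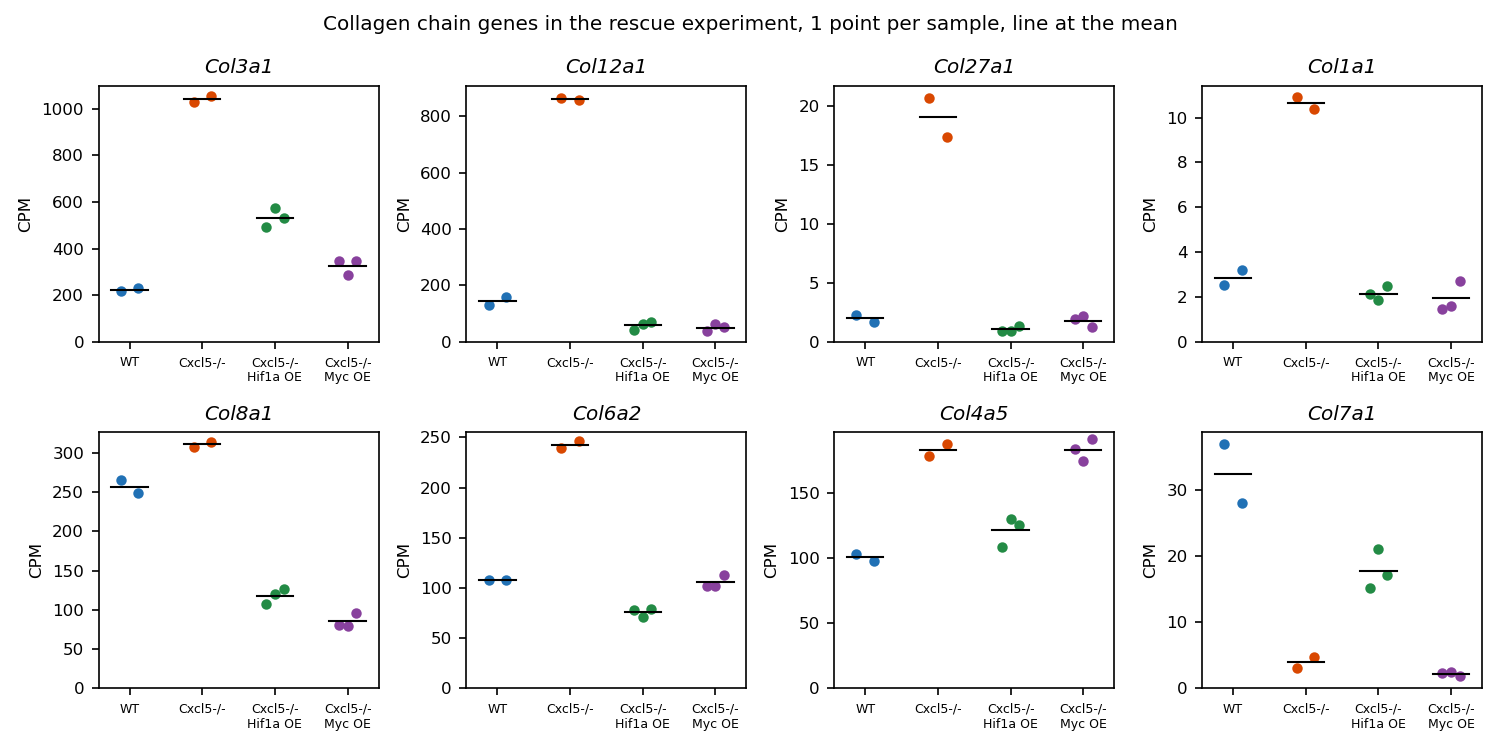
CPM (linear axis from 0) of 8 collagen chain genes in each library of the rescue experiment, with 1 point per library and a bar at the group mean for rescue 3D WT, rescue 3D Cxcl5-/-, Hif1a OE and Myc OE. Col12a1 and Col3a1 are highest in both Cxcl5-/- libraries and lower in all 6 overexpressing libraries, and Col7a1 is lowest in Myc OE, with Hif1a OE between knockout and WT.

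Partner chains of one helix did not keep a fixed proportion. The ratio of Col4a1 to Col4a2, in counts per kilobase of exon, was 3.51 to 4.07 in 3D WT. It was 2.23 to 2.75 in the libraries labelled 3D Cxcl5-/-, 2.91 to 3.72 in 2D WT and 3.26 to 3.65 in 2D Cxcl5-/-. In the rescue experiment it was 2.21 to 2.24 in WT and 2.17 to 2.19 in Cxcl5-/-, so the separation seen in the culture experiment was not seen there. The ratio of Col6a1 to Col6a2 was 4.41 to 4.82 in 3D WT and 2.49 to 3.50 in 3D Cxcl5-/-. In the rescue experiment this ratio was 4.42 to 4.89 in WT, 2.67 to 2.77 in Cxcl5-/-, 4.09 to 5.08 in Hif1a OE and 3.41 to 4.03 in Myc OE. For this pair the WT range lay above the Cxcl5-/- range in both 3D experiments. The ratio of Col4a1 to Col4a5 was 1.17 to 1.41 in Myc OE, below the 2.28 to 2.49 of Hif1a OE and the 2.39 to 2.39 of rescue 3D Cxcl5-/-. These ratios need no scaling between libraries and were not tested. They rest on the exon length taken for each gene, so only their change between groups can be read. In the conditioned medium experiment 1 library, M1-CM replicate 2, had the lowest value of all 9 for each of the 3 ratios (1.90, 2.01 and 2.35 in the order above), and leaving it out left 0 members called.

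Fibrillar chains summed to 705 ± 23.3 CPM in 2D WT, 549 ± 25.1 in 2D Cxcl5-/-, 563 ± 30.1 in 3D WT and 905 ± 56.4 in 3D Cxcl5-/- (mean ± SD, n = 3), most of it Col3a1. In the rescue experiment they summed to 299 ± 9.38 in WT and 1151 ± 15.2 in Cxcl5-/- (n = 2), and to 595 ± 42.9 in Hif1a OE and 379 ± 38.7 in Myc OE (n = 3). Type IV chains summed to 558 ± 56.7, 575 ± 15.9, 687 ± 58.0 and 739.6 ± 17.3 CPM in 2D WT, 2D Cxcl5-/-, 3D WT and 3D Cxcl5-/-. The rescue 3D Cxcl5-/- libraries stood above the other 3 rescue groups for type IV chains too, at 871 ± 29.4 CPM against 533 ± 22 in WT, 566 ± 35.8 in Hif1a OE and 542 ± 45.4 in Myc OE. The other collagens summed to 1019 ± 89.3 CPM in 2D WT, 1143 ± 19.1 in 2D Cxcl5-/-, 1637 ± 104 in 3D WT and 1624 ± 143 in 3D Cxcl5-/-, so that the 3D groups overlapped with TMM scaling, while Col18a1, their most abundant member per length, was higher with the knockout label. All sums of this paragraph depend on that scaling. As a share of all counts, without it, the 44 genes together were at 0.238% to 0.261% in 3D WT and 0.318% to 0.404% in 3D Cxcl5-/-. They summed to 1313 ± 32.8 CPM in rescue 3D WT, 2517 ± 44.4 in rescue 3D Cxcl5-/-, 1043 ± 77.1 in Hif1a OE and 882.5 ± 35.6 in Myc OE.

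Among genes that finish, export and cross-link collagen, most of those called rose with spheroid culture of WT cells and were lower with the 3D knockout label. Of 34 such genes listed, 28 were tested in 3D WT against 2D WT, and 16 rose and 4 fell, where 44.3% of all genes were called, with a median log2 difference of 0.82. With library totals 13 rose and 7 fell. The prolyl and lysyl hydroxylases, which stabilise the helix and prepare cross-links, led, with P4ha2 at 3.82 ± 0.18, Plod2 at 2.35 ± 0.09 and P4ha1 at 2.14 ± 0.08 (SE), and the procollagen protease Bmp1 fell (-0.73 ± 0.08). In the libraries labelled 3D Cxcl5-/- against 3D WT, 2 rose and 18 fell of 28, where 45% of all genes were called, with a median of -0.52. With library totals 4 rose and 10 fell and the median was -0.12, against 0.35 for all genes. Pcolce2 (-2.53 ± 0.23), Adamts14 (-2.45 ± 0.23) and Loxl2 (-2.06 ± 0.26), which act in propeptide removal and cross-linking, fell the most, while Bmp1 (1.30 ± 0.08) and its enhancer Pcolce (0.37 ± 0.11) rose. In 3D against 2D of Cxcl5-/- cells 9 rose and 10 fell of 28 (57% of all genes called), or 12 and 6 with library totals. In 2D Cxcl5-/- against 2D WT 1 rose and 3 fell (7.03% of all genes), or 0 and 1 with library totals, and in rescue 3D Cxcl5-/- against WT 7 rose and 12 fell of 33 (41.9% of all genes). In Hif1a OE against the knockout 9 rose and 6 fell of 33 (35.5% of all genes), or 6 and 9 with library totals. In Myc OE 7 rose and 9 fell (39.6% of all genes), or 3 and 13 with library totals. Directions of the whole list therefore depended on the scaling in these overexpression comparisons.

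Of 11 collagen receptor genes listed, 9 were tested in 3D WT against 2D WT, and 4 rose and 1 fell, where 44.3% of all genes were called. The integrin chains Itga1 (2.52 ± 0.17), Itga2 (1.31 ± 0.33) and Itga10 (1.23 ± 0.22) rose and the collagen uptake receptor Mrc2 fell (-0.80 ± 0.19). In the libraries labelled 3D Cxcl5-/- against 3D WT, 3 rose and 2 fell of 9, where 45% of all genes were called, and 5 rose and 0 fell with library totals. Itga1 (1.64 ± 0.15), the tyrosine kinase receptor Ddr2 (0.98 ± 0.09) and Mrc2 (0.92 ± 0.19) were higher, and the hyaluronan receptor Cd44 (-0.86 ± 0.17) and the shared integrin chain Itgb1 (-0.37 ± 0.07) were lower with TMM scaling. In 3D against 2D of Cxcl5-/- cells 4 rose and 2 fell (57% of all genes called), in 2D 1 rose and 0 fell with the knockout (7.03%), and in rescue 3D Cxcl5-/- against WT 6 rose and 3 fell of 11 (41.9%). In Hif1a OE 0 rose and 5 fell (35.5% of all genes called), and in Myc OE 1 rose and 5 fell against the knockout (39.6%). Of 16 basement membrane partners of type IV collagen, 14 were tested in 3D WT against 2D WT, and 10 rose and 0 fell, where 44.3% of all genes were called, or 8 and 1 with library totals. The linker Nid2 had 9, 15 and 7 counts in 2D WT and 96, 81 and 144 in 3D WT (3.72 ± 0.29). The laminin chain Lamb3 was called on 0, 0 and 0 counts in 2D WT and 8, 7 and 10 in 3D WT. The libraries labelled 3D Cxcl5-/- differed from 3D WT with 4 higher and 4 lower of 14, where 45% of all genes were called, or 6 and 2 with library totals. Nid2 (4.50 ± 0.22), Lamb3 (3.57 ± 0.60) and Lama2 (2.88 ± 0.59) were the 3 largest that rose, and Lama3 (-2.05 ± 0.26) and Lamb1 (-0.46 ± 0.11) were among those that fell. In 3D against 2D of Cxcl5-/- cells 8 were higher and 1 lower of 14 (57% of all genes called), and in 2D with the knockout 1 and 2 (7.03%). In the rescue experiment 6 were higher and 6 lower of 16 with the knockout (41.9% of all genes called), 2 and 6 in Hif1a OE (35.5%) and 5 and 7 in Myc OE (39.6%).

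Of 13 fibril partners, which bind or coat collagen fibrils, 11 were tested in 3D WT against 2D WT, and 7 rose and 1 fell, where 44.3% of all genes were called. The small proteoglycans Dcn (6.65 ± 0.34), Lum (6.49 ± 0.56) and Fmod (3.51 ± 1.06) had the largest fitted rises from 32, 9 and 6 counts or fewer in each 2D WT library, and Thbs2 fell (-2.37 ± 0.64). In the libraries labelled 3D Cxcl5-/- against 3D WT, 5 rose and 2 fell of 11, where 45% of all genes were called, or 7 and 1 with library totals. By TMM scaling Comp (4.25 ± 0.47), Thbs2 (2.55 ± 0.65) and Bgn (1.69 ± 0.24) were the 3 largest that rose, and Dcn (-3.74 ± 0.28) and Lum (-1.27 ± 0.39) were lower. Dcn and Lum are also in the fibroblast and stellate cell marker list, whose sum moved the other way. In 3D against 2D of Cxcl5-/- cells 9 were higher and 0 lower of 11 (57% of all genes called), and in 2D with the knockout 1 and 1 (7.03%). With the knockout in the rescue experiment 6 were higher and 2 lower of 13 (41.9% of all genes called), 2 and 7 in Hif1a OE (35.5%) and 4 and 8 in Myc OE (39.6%).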

How the data were processed

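The 31 Panc02 libraries were made by the authors with the TruSeq Stranded Total RNA kit and sequenced as paired reads. The authors aligned reads with HISAT2 to mm10, made raw gene counts with StringTie and deposited them as 3 count tables, of 9, 12 and 10 libraries, and tested them with DESeq2. The versions of HISAT2 and StringTie and the annotation release are not given in the sources used here. Stranded libraries keep antisense reads apart only if the counting used strand, which is not given either. Groups were taken from the labels. The members and gene lists were chosen with earlier results of these data known.

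Counts were tested in R 4.3.3 with edgeR 4.0.16 (quasi-likelihood F test, TMM scaling, filterByExpr, all groups of a table in 1 fit), with Benjamini-Hochberg adjustment over all genes tested (19207, 21367 and 28730) and a threshold of adjusted p under 0.05. Standard errors were taken as the fold change on the log2 scale over the root of F. The procedure was tested on simulated data first. DESeq2 1.42.0, limma 3.58.1, numpy 2.4.6 and pandas 2.3.3 were also used. Lengths and starts came from the GENCODE and RefSeq annotation of GRCm38. Total counts per library were 43875429 to 78498230, 46973008 to 72361685 and 41542533 to 64872036 in the conditioned medium, culture and rescue tables, and folds against groups at 0 used a floor of 3 counts per library. Standard errors include the spread between libraries as fitted by edgeR, and the floor covers counting error only.

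There were 14 comparisons within tables, and a joint fit of the 3D groups of both experiments (27239 genes tested), added after seeing the data. Named members were the 3 most abundant per length of each collagen group, up to 6 called members without overlap in each comparison by size of change, their partner chains, members at 3 counts or fewer in 1 group and over 10 in the other, up to 3 genes per list and direction, and Cxcl5, Hif1a and Myc. The values of 1 gene that the rule named are not reported here. Col25a1 was named after its values were seen. Alternatives were DESeq2, 2 other scalings, other filters, a fold limit, summed entries of a symbol, fewer groups, a replicate block, leaving out each library, a wider basement membrane group, longest transcripts as lengths and, added after seeing the data, members well above the receptor genes and library totals for the partner lists.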

Additional observations from a re-analysis of the deposited data

Results flagged for a closer look

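The effect of the Cxcl5 knockout label differed between 2D and 3D culture, by the interaction test of edgeR over all 12 libraries of the culture experiment, for 8 of 30 collagen genes tested (26.7%), a share close to the 27.2% of all genes called by the same test. The log2 interaction (± SE, adjusted over all genes tested) was Col27a1 (3.52 ± 0.32, adjusted p = 6.97e-06), Col3a1 (1.15 ± 0.11, adjusted p = 1.26e-05), Col4a2 (0.68 ± 0.14, adjusted p = 0.00314), Col8a1 (0.32 ± 0.11, adjusted p = 0.0495), Col17a1 (-1.27 ± 0.33, adjusted p = 0.0126), Col5a2 (-1.30 ± 0.45, adjusted p = 0.0461), Col16a1 (-0.87 ± 0.16, adjusted p = 0.00142) and Col6a1 (-0.68 ± 0.18, adjusted p = 0.0154). Col27a1 and Col3a1 were lower with the knockout in all 3 of 3 libraries of 2D and higher in 3 of 3 of 3D, whereas Col16a1, Col17a1, Col5a2 and Col6a1 lost their calls when library totals replaced TMM. The calls of Col5a2 and Col8a1 were also lost in 9 and 10 of 12 fits with a library left out.

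The effect of the knockout in 3D also differed between the culture and the rescue experiment, by a joint fit added after the data had been seen, for 10 members, where 8.99% of all 27239 genes tested were called. The difference (rescue minus culture, log2 ± SE) was Col12a1 (2.98 ± 0.23, adjusted p = 4.72e-05), Col27a1 (2.54 ± 0.32, adjusted p = 0.00082), Col1a1 (2.49 ± 0.50, adjusted p = 0.0106), Col3a1 (1.48 ± 0.13, adjusted p = 0.000107), Col4a5 (1.21 ± 0.15, adjusted p = 0.000823), Col6a2 (1.05 ± 0.23, adjusted p = 0.0155), Col6a1 (0.99 ± 0.18, adjusted p = 0.00617), Col4a1 (0.58 ± 0.13, adjusted p = 0.0188), Col7a1 (-1.81 ± 0.34, adjusted p = 0.00815) and Col16a1 (-0.66 ± 0.16, adjusted p = 0.031). The calls of Col4a1 and Col6a2 were lost with library totals. The WT libraries of the rescue experiment had the highest counts of silent receptor genes, Cxcl5 moved with the knockout label in opposite directions in the 2 experiments, and the part of either in these differences was not tested.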

How the results depend on the processing

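With DESeq2 in place of edgeR, 3 members were called in M1-CM against Ctrl and 1 in M0-CM against Ctrl, where edgeR called 0. A fold limit (absolute log2 above 1) left 12 called in 3D against 2D of WT, 11 of Cxcl5-/-, 1 for the knockout in 2D and 8 in 3D, 4 for the interaction, 12 for Hif1a OE against the knockout, 5 for Hif1a OE against WT and 4 for Myc OE against Hif1a OE. At least 10 counts in every library left 13 in 3D WT against 2D WT and 14 for the knockout in the rescue experiment, where fewer members were tested, and no filter left 5 for the interaction. Members well above the receptor genes gave 12 for the knockout in the rescue experiment, 12 for Myc OE against the knockout and 8 for Myc OE against WT. Library totals turned the knockout difference in 3D to 0.012 for Col12a1, 0.042 for Col4a5 and 0.30 for Col8a1, and that of Myc OE against the knockout to -0.33 for Col4a5, and the cause was not tested. Adding Col7a1, Col15a1 and Col18a1 to the type IV group gave 4 calls in 3D WT against 2D WT (3 higher, 1 lower) and 5 for the knockout label in 3D (3 higher, 2 lower).

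Leaving out 1 library at a time gave 15 to 21 calls in 3D against 2D of WT, 16 to 20 of Cxcl5-/-, 5 to 7 for the knockout in 2D, 14 to 17 in 3D, 6 to 9 for the interaction, 16 to 20 for the knockout in the rescue experiment, 12 to 19 for Hif1a OE and 16 to 20 for Myc OE against the knockout, 9 to 11 for Myc OE against Hif1a OE, 7 to 11 for Hif1a OE and 9 to 14 for Myc OE against WT, 7 to 11 for the joint comparison and 0 in each conditioned medium comparison. The lowest value for Hif1a OE, 12, came without rescue 3D Cxcl5-/- replicate 1. Over these fits 2468 of 2648 member values kept their direction and side of the threshold, 143 lost and 37 gained a call, and 0 reversed. Where a fit left 1 library in a group, that library was taken to vary like the other groups.

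The replicate numbers were taken not to pair the libraries, since same-numbered libraries deviated together only weakly (mean correlation 0.107, 0.0417 and 0.0314 in the 3 tables, lowest -0.411, -0.254 and -0.132). A replicate block gave 21 and 19 calls in 3D against 2D of WT and Cxcl5-/-, 6 and 16 for the knockout in 2D and 3D, 23 in the rescue experiment, 19 each for Hif1a OE and Myc OE against the knockout and 0 with conditioned medium. Depth limits the low members, where 3 counts is the floor and a few libraries decide the value. The labels do not tie libraries to separate cultures, groups hold 2 or 3 libraries, and Cxcl5 RNA went against the label of the 3D Cxcl5-/- group.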
